A study of Mus musculus with 6 samples.

Results

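The 10 genes described here encode carriers that move amino acids across the plasma membrane, namely Slc3a2, Slc7a5, Slc7a6, Slc7a11, Slc7a1, Slc7a2, Slc38a1, Slc38a2, Slc1a4 and Slc1a5. They were taken by name, with earlier results of these data known, and all 10 were found by symbol among the 52636 genes of each table. RNA sequencing gave their transcript levels in RAW264.7, an established macrophage line from BALB/c mice, with 6 libraries in all. Cells of the 3 C2S libraries received 150 µg/ml of the extract C2S and were kept for 24 h, and those of the 3 PM_control libraries received 0 µg/ml. Both groups share the line and its high glucose DMEM with fetal bovine serum, and the labels give no further meaning for either group name. Whether the 3 libraries of a group came from separate cultures is not stated, so p-values reflect only the variation among these libraries, which may be technical. The comparison asks how the extract-treated macrophages differ from untreated ones in transporter transcripts.

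As background, these carriers fall into 4 kinds. Slc3a2 is the glycoprotein heavy chain that brings several SLC7 light chains to the cell surface, among them Slc7a5 (LAT1, which exchanges leucine and other large neutral amino acids), Slc7a6 (y+LAT2, which exchanges arginine for neutral amino acids) and Slc7a11 (xCT, which takes up cystine in exchange for glutamate). Slc7a1 (CAT1) and Slc7a2 (CAT2) carry arginine and lysine without a heavy chain. Slc38a1 and Slc38a2 (SNAT1 and SNAT2) take up small neutral amino acids with sodium. Slc1a4 and Slc1a5 (ASCT1 and ASCT2) exchange small neutral amino acids such as serine, and Slc1a5 also exchanges glutamine. In macrophages, arginine uptake feeds nitric oxide and polyamine synthesis and cystine uptake feeds glutathione. Several of these genes are known targets of ATF4, the transcription factor that is translated when amino acids run short or the endoplasmic reticulum is stressed.

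Library totals lay between 8594485 and 10665869 estimated counts, and 3 counts, used as the floor of detection, were worth 0.275 to 0.361 CPM depending on the library. CPM are counts scaled to a common library total with TMM factors. Floors cover counting error only. All 10 macrophage markers had counts, with a summed level of 8497 to 8703 CPM with C2S and 7293 to 7713 CPM in the controls, although one of them, Mertk, had a single count in all. Marker lists of 6 other cell types summed to at most 10.9 CPM in any library, with Cd3e, Cd8a, Epcam, Col1a2 and Pdgfra at 0. Of these, 4 lists were higher in each C2S library than in any control. The endothelial list was at 5.21 to 10.9 CPM with C2S and 1.05 to 2.12 CPM in the controls, the T cell list at 3.73 to 4.19 and 1.72 to 2.75 CPM, the B cell list at 1.92 to 3.83 and 0.0918 to 0.404 CPM, and the granulocyte list at 1.80 to 2.65 and 0 to 0.551 CPM. The fibroblast and epithelial lists were at 0 in the controls and at most 0.589 CPM with C2S. Between 15852 and 16648 genes had any count in a C2S library and between 14638 and 15051 in a control. The mitochondrial genome took 1.00% to 1.15% of counts with C2S and 1.43% to 1.57% in the controls, and the part of these differences in the results was not tested. In bulk RNA a change in the share of cells that express a gene and a change in RNA per cell cannot be told apart.

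Most of the transporters rose with C2S, and the 9 that were expressed spanned changes from a fall of 0.51 to a rise of 3.51 on the log2 scale. Slc1a4, Slc3a2 and Slc38a2 changed most, Slc38a1 least, and Slc7a6 was the one that fell. Of the 10 genes, 9 passed the filter on low counts, and of these 8 were called higher and 1 lower by edgeR's quasi-likelihood test at an adjusted p of 0.05, which called 27% of all 11561 tested genes higher and 28.4% lower (55.4% in either direction). Slc7a2 had 0 counts in every library and could not be tested. In CPM the C2S and control libraries did not overlap for any of the 9, and they did not overlap for 61.1% of all tested genes. The median log2 fold change of the 9 was 1.18, against 0.00 over all tested genes. The expected counts of all 10 genes were whole to within 0.005, and in GENCODE M21 only Slc7a2 shared exon bases with another gene (6.95% of its exon length, with Gm26584).

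**Figure D1:**
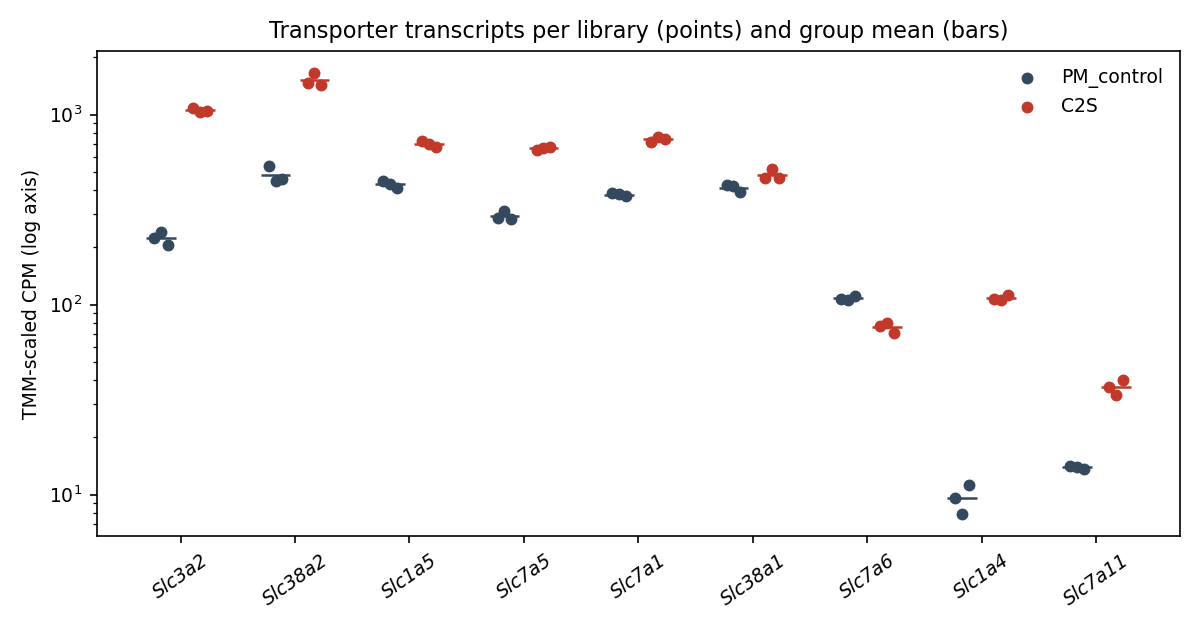
TMM-scaled CPM (log axis) of the 9 expressed transporters in each library, with points for libraries and short bars for group means, PM_control in dark grey and C2S in red. The groups stand apart for each gene, by the widest gap for Slc1a4 (9.55 against 108 CPM) and by the narrowest for Slc38a1 (411 against 481 CPM).

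Slc3a2 (ENSMUSG00000010095, GRCm38 chromosome 19, 8706882 to 8723369, minus strand), the shared heavy chain, was at 225, 241 and 206 CPM in the control libraries and at 1077, 1033 and 1043 CPM with C2S. The lowest C2S library was thus several times above the highest control, and the C2S libraries lay close together. The change was 4.69-fold (log2 2.23 ± 0.07, SE here and below; edgeR, adjusted p = 7.32e-14), which placed the gene at the 97.1st percentile of all tested genes by fitted change.

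Of its light chains, Slc7a5 (chromosome 8, 121881150 to 121907694) was the most abundant and also rose, by less than Slc3a2. It was at 285, 312 and 283 CPM in the controls and at 654, 669 and 674 CPM with C2S, a 2.27-fold change (log2 1.18 ± 0.06; edgeR, adjusted p = 4.66e-11). In CPM, Slc7a11 (chromosome 3, 49892526 to 50443614) was the scarcest member with any counts in the C2S libraries and, after Slc1a4, the next scarcest in the controls. It was at 14.1, 14.1 and 13.6 CPM in the controls and at 36.6, 33.4 and 40.0 CPM with C2S, a 2.63-fold change (log2 1.39 ± 0.11; edgeR, adjusted p = 1.39e-08) that rested on 423 counts over the controls and 1004 over the C2S libraries. Slc7a6 (chromosome 8, 106168857 to 106198706) went the other way. It was at 108, 105 and 111 CPM in the controls and at 77.1, 80.0 and 71.0 CPM with C2S (log2 -0.51 ± 0.07; edgeR, adjusted p = 1.17e-05). On TPM, a scale that also corrects for transcript length, the groups overlapped for Slc7a6, with 67.0, 52.9 and 60.5 TPM in the controls and 55.9, 42.6 and 40.2 TPM with C2S. Its call was lost with limma on log2(TPM + 1) (log2 fold change -0.38, adjusted p = 0.0655).

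**Figure D2:**
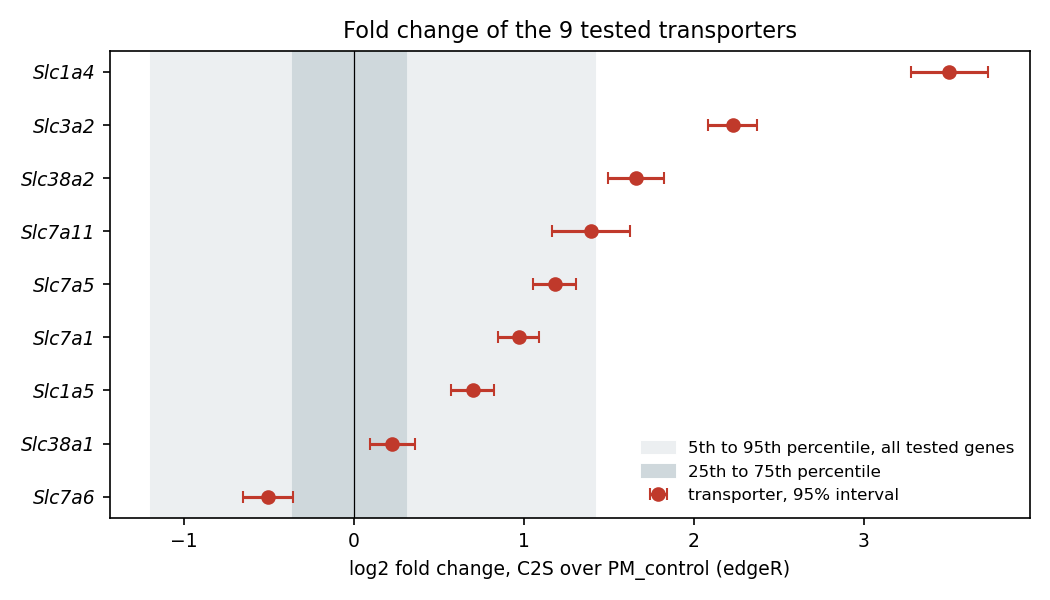
Log2 fold change of C2S over PM_control for the 9 tested transporters (edgeR; points with 95% intervals), over bands that hold the middle 50% and middle 90% of all 11561 tested genes. Slc1a4, Slc3a2 and Slc38a2 lie beyond the 95th percentile (1.42), while Slc38a1 lies inside the 25th to 75th percentile band (-0.36 to 0.31).

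The heavy chain exceeded the sum of its light chains by more in each C2S library than in any control. In TPM, which allows levels of different genes to be compared, Slc3a2 was at 235, 246 and 204 in the controls, where the 6 light chains known to pair with it (Slc7a5, Slc7a6, Slc7a7, Slc7a8, Slc7a10 and Slc7a11) summed to 216, 208 and 201 TPM. With C2S, Slc3a2 was at 1003, 1017 and 959 TPM and the light chains summed to 374, 375 and 361 TPM. The ratio of heavy to light chain transcripts was therefore 1.09, 1.18 and 1.01 in the controls and 2.68, 2.71 and 2.65 with C2S. These ratios do not depend on the scaling between libraries. The groups did not overlap, and the mean log2 ratio differed by 1.30 between them (exact two-sided permutation test, p = 0.1, adjusted p = 0.1 over 3 ratios, n = 3 per group), where 0.1 is the smallest p that 3 against 3 libraries can give.

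Within the light chain pool, Slc7a5 held a larger share and Slc7a6 a smaller one in each C2S library than in any control. Slc7a5 made up 63.6%, 69.4% and 65.0% of summed light chain TPM in the controls and 77.9%, 80.8% and 81.6% with C2S. Slc7a6 made up 31.0%, 25.4% and 30.0% in the controls and 14.9%, 11.3% and 11.1% with C2S. Neither share overlapped between the groups. Slc7a11 remained a small part of the pool, at 1.24%, 1.25% and 1.17% in the controls and 2.61%, 2.10% and 2.82% with C2S, and Slc7a8 (LAT2, a further exchanger of neutral amino acids and no member of the 10) was at 2.67% to 2.99% and 3.52% to 4.53%. The shares of Slc7a7 overlapped between the groups, at 0.947% to 1.2% in the controls and 0.648% to 1.2% with C2S, and Slc7a10 had 0 counts. For each of the 4 shares without overlap the exact two-sided permutation test gave its smallest possible p of 0.1 (adjusted p = 0.125 over 5 shares, n = 3 per group).

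**Figure D3:**
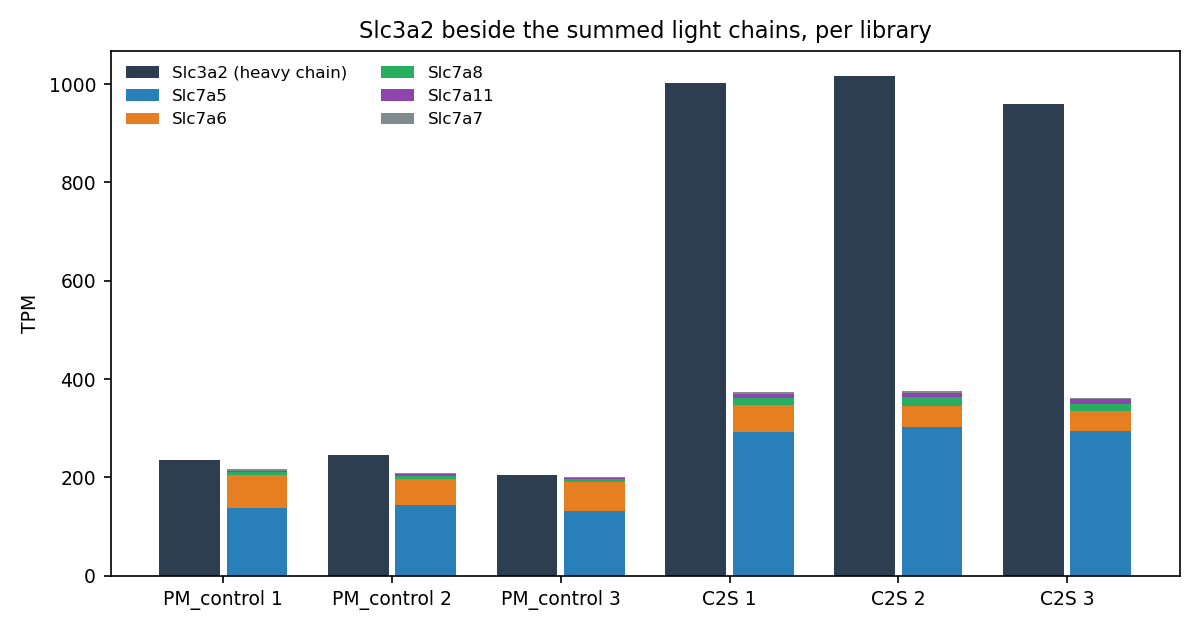
TPM of Slc3a2 (dark bars) beside the stacked TPM of its light chains in each library, 3 PM_control libraries on the left and 3 C2S libraries on the right. Heavy and light chain bars are of similar height in the controls (ratios 1.01 to 1.18), while the heavy chain bar is the taller with C2S (2.65 to 2.71).

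Of the cationic carriers among the 10, Slc7a1 rose and Slc7a2 had no counts. Slc7a1 (chromosome 5, 148327410 to 148399904) was at 387, 380 and 371 CPM in the controls and at 719, 765 and 745 CPM with C2S, a 1.96-fold change (log2 0.97 ± 0.06; edgeR, adjusted p = 3.87e-10). Slc7a2 (chromosome 8, 40862396 to 40922308), the carrier that activated macrophages are known to induce together with inducible nitric oxide synthase, had 0 counts in all 6 libraries, which allows a level of up to 0.275 to 0.361 CPM. A ratio of these 2 carriers could therefore not be formed. Nos2, the gene of inducible nitric oxide synthase, was called higher at a low level. It went from 1.31 ± 0.514 to 3.36 ± 0.500 CPM (SD, n = 3; edgeR, adjusted p = 0.00384), on 39 counts over the controls and 91 over the C2S libraries.

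Of the sodium-coupled carriers of small neutral amino acids, Slc38a2 rose severalfold and Slc38a1 had the smallest change of the called members. Slc38a2 (chromosome 15, 96687392 to 96699730) was at 537, 450 and 458 CPM in the controls and at 1464, 1658 and 1438 CPM with C2S, a 3.16-fold change (log2 1.66 ± 0.08; edgeR, adjusted p = 2.07e-11). Its neighbour on the same strand, Slc38a1 (chromosome 15, 96571418 to 96642913), was at 425, 420 and 389 CPM in the controls and at 466, 516 and 463 CPM with C2S. The groups did not overlap, but the log2 fold change was 0.23 (95% interval 0.09 to 0.36; edgeR, adjusted p = 0.00572). That call was lost with library sizes alone as the scaling (log2 0.14, adjusted p = 0.062) and with limma on log2(TPM + 1) (log2 0.11, adjusted p = 0.3), where the TPM of the groups overlapped. The ratio of Slc38a2 to Slc38a1 TPM was 2.03, 1.73 and 1.89 in the controls and 5.09, 5.21 and 5.04 with C2S, a difference of 1.44 in mean log2 ratio (exact two-sided permutation test, p = 0.1, adjusted p = 0.1 over 3 ratios, n = 3 per group).

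The exchangers of the SLC1 family both rose, with the higher fitted change for Slc1a4. Slc1a4 (chromosome 11, 20302180 to 20332713) was at 9.54, 7.89 and 11.2 CPM in the controls and at 107, 106 and 112 CPM with C2S. The C2S libraries lay close together, while the control values rested on 289 counts in all. The change was 11.4-fold (log2 3.51 ± 0.11; edgeR, adjusted p = 7.79e-14), at the 98.6th percentile of all tested genes. Slc1a5 (chromosome 7, 16781340 to 16798274), the main glutamine exchanger of many cultured cells, was at 449, 433 and 412 CPM in the controls and at 730, 696 and 673 CPM with C2S, a 1.62-fold change (log2 0.70 ± 0.06; edgeR, adjusted p = 4.45e-08). In TPM, Slc1a5 exceeded Slc1a4 by 71.5, 83.5 and 54.4 times in the controls and by 10.4, 10.1 and 9.36 times with C2S. The mean log2 ratio differed by -2.79 between the groups (exact two-sided permutation test, p = 0.1, adjusted p = 0.1 over 3 ratios, n = 3 per group).

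RefSeq promoter windows (build GRCm38.p6, 250 bases before to 50 bases after a transcript start) were found for 6 of the 10 genes, in 8 windows, and not for Slc7a5, Slc7a2, Slc38a1 and Slc1a5. They were searched on both strands for TGATGNAA, the core of the C/EBP-ATF response element through which ATF4 is known to act, and for TGACNNNGC, the core of the antioxidant response element bound by NRF2. No match of one motif overlapped a match of the other. The first core was present in 3.97% of all 32851 windows and in those of Slc7a11 and Slc1a4. Both genes rose with C2S, as did Slc3a2, Slc7a1 and Slc38a2, whose windows did not hold it. Slc7a11 held it at 2 places in opposite orientation, positions -66 to -59 and -47 to -40 from the transcript start, and 23 of all windows (0.07%) held it at 2 or more places. Slc1a4 held it across the start itself, from -4 to 4. The stretches that carry these matches are shown 5′ to 3′ on the gene's own strand, the minus strand, with the matches in capitals, Slc7a11 at chr3:50443614-50443713 and Slc1a4 at chr11:20332710-20332809.
Slc7a11: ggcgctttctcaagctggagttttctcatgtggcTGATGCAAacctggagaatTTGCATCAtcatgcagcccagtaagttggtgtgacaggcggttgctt
Slc1a4: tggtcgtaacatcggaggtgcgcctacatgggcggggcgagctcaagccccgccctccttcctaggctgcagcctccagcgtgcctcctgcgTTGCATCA
The second core was present in 12.4% of all windows and in those of Slc7a1, Slc7a6 and Slc38a2, of which Slc7a1 and Slc38a2 rose and Slc7a6 fell. The window of Slc3a2 held neither, and sequence beyond the windows was not searched. A match describes letters in a window and is no evidence of binding.

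The estimated transcript use of Slc7a11 stood apart between the groups. RSEM writes for each gene a length that averages its annotated transcripts, weighted by their estimated abundance, so a difference in length is a difference in estimated transcript use. The length of Slc7a11 was 8401, 8379 and 9029 bases in the controls and 5533, 6353 and 5776 bases with C2S, a difference in means of -2716 bases (-31.6%), without overlap between the groups. The tables list 5 transcripts for the gene, from 481 to 9223 bases, of which the protein-coding ones have 2419 and 9223 bases. Those with a retained intron have 2677 and 3162 bases, and the length does not tell which shorter transcript gained. The deposited tables give no count per transcript, so the estimate carries no error of its own. Because TPM divides by this length, Slc7a11 was at 2.69, 2.61 and 2.35 TPM in the controls and at 9.78, 7.87 and 10.2 TPM with C2S, and its log2 fold change was the highest of its alternatives on log2(TPM + 0.1), at 1.82, against 1.39 from counts.

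The groups did not overlap in length for Slc7a11 and Slc38a1, 2 of the 8 members with more than 1 length, and for 15.6% of the 9132 tested genes with more than 1 length. Slc38a1 was at 7261 to 7295 bases in the controls and 7328 to 7340 bases with C2S, a difference of 0.734%. The length of Slc7a6 was 2742, 3265 and 3031 bases in the controls and 2206, 2951 and 2741 bases with C2S, so the groups overlapped. For the other 5 genes the means differed by between -3.47% and 0.0877%. The exact two-sided permutation test gave p = 0.1 for Slc7a11 and Slc38a1, the smallest possible, and none of the 8 fell below an adjusted p of 0.267 (n = 3 per group).

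**Figure D4:**
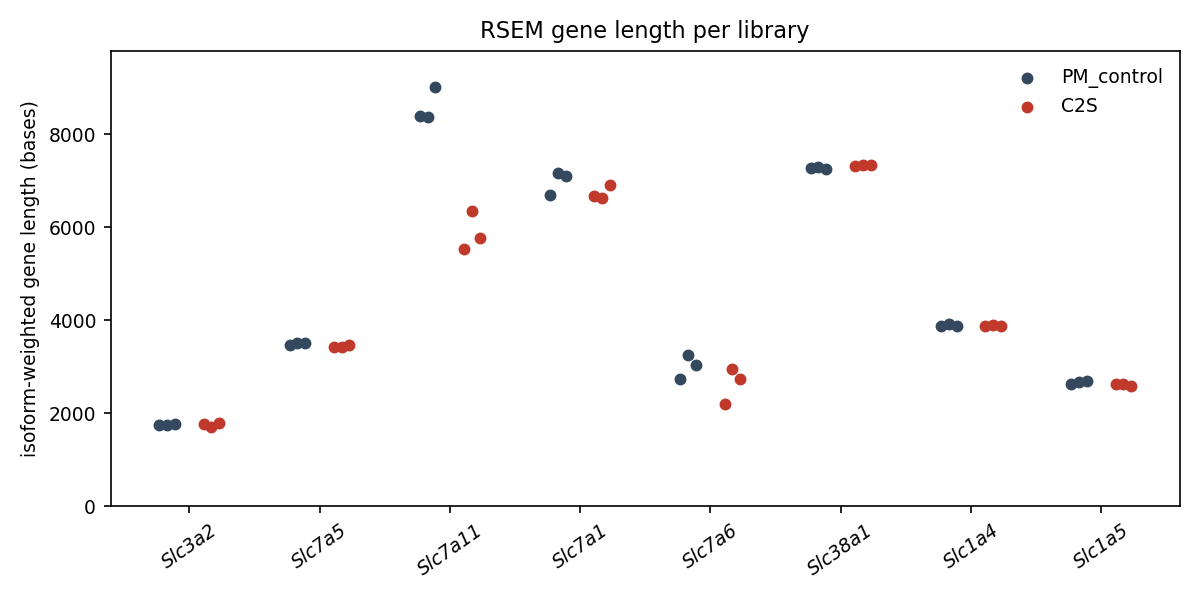
Isoform-weighted gene length in bases, as RSEM estimated it in each library, for the 8 transporters with more than 1 estimated length, PM_control in dark grey and C2S in red. Slc7a11 is the gene whose groups stand far apart (8379 to 9029 against 5533 to 6353 bases).

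The order of the transporters by level was not the same in the 2 groups. In control cells, levels in TPM ran from Slc1a5 (273 ± 18.8, SD, n = 3) through Slc3a2 (228 ± 21.5), Slc38a2 (168 ± 19.5), Slc7a5 (138 ± 6.61), Slc38a1 (89.1 ± 4.93), Slc7a1 (85.9 ± 6.22) and Slc7a6 (60.1 ± 7.08) to Slc1a4 (4.01 ± 0.723) and Slc7a11 (2.55 ± 0.178). Slc38a1 and Slc7a1 were the neighbours in that order whose libraries overlapped. With C2S the order was Slc3a2 (993 ± 30.5), Slc38a2 (493 ± 44.9), Slc1a5 (421 ± 13.8), Slc7a5 (296 ± 6.09), Slc7a1 (162 ± 8.58), Slc38a1 (96.4 ± 7.10), Slc7a6 (46.2 ± 8.48), Slc1a4 (42.3 ± 0.946) and Slc7a11 (9.28 ± 1.24), and only Slc7a6 and Slc1a4 overlapped. The 10 transporters together took 1116, 1048 and 981 TPM in the controls and 2558, 2656 and 2466 TPM with C2S, and the groups did not overlap.

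Other amino acid carriers and related carriers were described from 5 lists of 63 genes, to see how far the pattern of the 10 reached. Of these, 18 had 0 counts in every library, 32 passed the count filter, 9 rose (28.1%) and 7 fell (21.9%), with a median log2 fold change of 0.07. These shares lay near those of all tested genes, 27% and 28.4%. In the SLC7 and SLC3 families, Slc7a8 rose from 14.8 ± 1.22 to 39.1 ± 4.99 CPM (SD, n = 3; log2 1.39 ± 0.12 (SE); edgeR, adjusted p = 3.75e-08). Slc3a1, the heavy chain of the kidney cystine carrier, was at 1.11 ± 0.239 and 2.63 ± 0.626 CPM, but 26.5% of its exon length overlaps Prepl, so its value is uncertain. Its call was lost without C2S replicate 1 (adjusted p = 0.0668) and with limma on log2(TPM + 1) (adjusted p = 0.0713).

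Of 7 genes listed as lysosomal carriers 3 rose (42.9%) and 2 fell (28.6%), where 27% of all tested genes rose and 28.4% fell. Ctns, the cystine exporter of lysosomes, rose from 17.3 ± 1.70 to 66.3 ± 1.88 CPM (log2 1.93 ± 0.09; edgeR, adjusted p = 2.93e-11). Slc15a3 rose and Slc15a4 fell, both carriers of histidine and peptides (log2 1.5 ± 0.08 and -0.49 ± 0.08). Mfsd12, which imports cysteine into lysosomes and melanosomes, fell from 125 ± 3.34 to 76.0 ± 4.87 CPM. Exons of Slc15a3 (28.1%) and Mfsd12 (29.7%) overlap another gene, so both values are uncertain.

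Of 6 tested SLC38 and SLC36 genes outside the 10, Slc38a7 rose by 0.45 ± 0.09 on the log2 scale and Slc36a1, a proton-coupled carrier of lysosomes, had a log2 fold change of -0.46 ± 0.09. Of 6 other plasma membrane carriers, Slc6a9, a glycine carrier, rose (log2 0.73 ± 0.14; 27.8% of its exon length overlaps Ccdc24, so it is uncertain) and Slc43a2, a carrier of large neutral amino acids, fell from 173 ± 14.6 to 130 ± 8.84 CPM. Of 9 mitochondrial carriers 2 rose (22.2%) and 3 fell (33.3%), near the 27% and 28.4% of all tested genes. Slc25a44, a carrier of branched-chain amino acids, rose by 0.57 ± 0.07 on the log2 scale, and Slc25a22, a glutamate carrier, by 0.28 ± 0.08, a call lost with library sizes alone (adjusted p = 0.0578), with limma on log2(TPM + 1) (adjusted p = 0.0848) and without PM_control replicate 1 (adjusted p = 0.0601). Slc25a13, an aspartate and glutamate exchanger, and Sfxn1, a serine carrier, had log2 fold changes of -0.52 ± 0.10 and -0.32 ± 0.09.

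**Figure D5:**
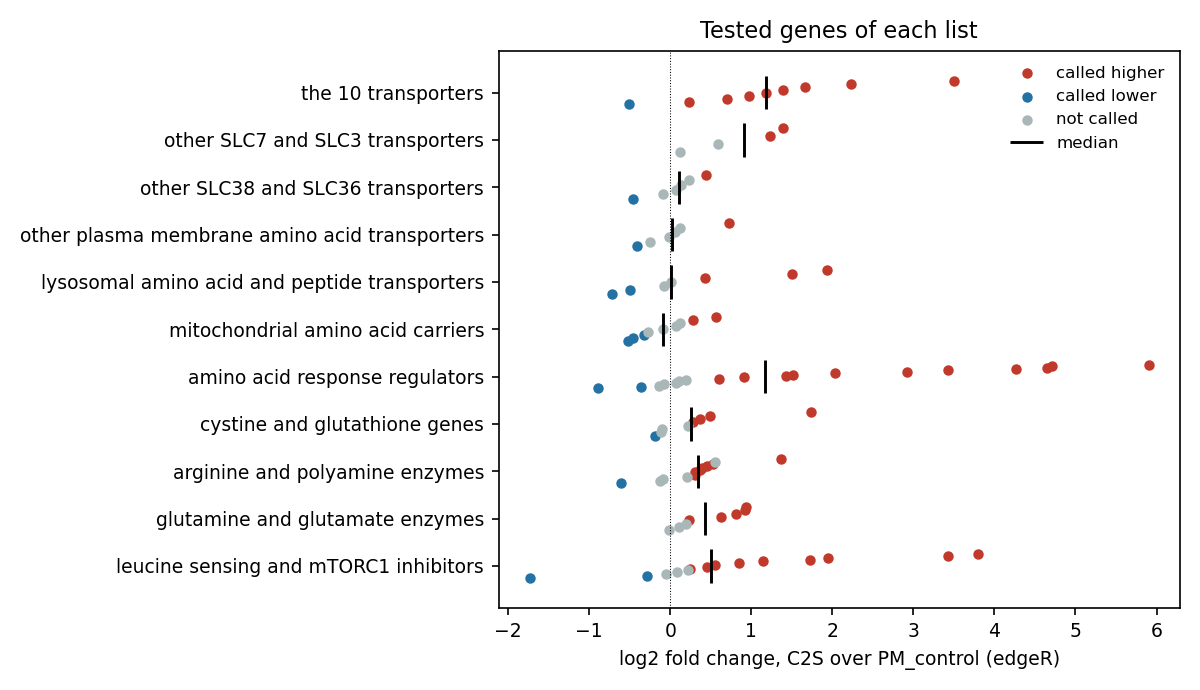
Log2 fold change of C2S over PM_control (edgeR) for each tested gene of the 11 lists, with genes called higher in red, called lower in blue and not called in grey, and a black bar at each list's median. The medians of the 10 transporters (1.18) and of the amino acid response regulators (1.17) lie farthest to the right, and those of the 5 other transporter lists run from -0.09 to 0.91.

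Genes of the amino acid response, among them regulators known to control several of the 10 transporters, were described the same way. The list also holds targets such as Asns, and Nfe2l2, Keap1 and Bach1 of the oxidative stress response. Of 18 tested, 11 rose (61.1%) and 2 fell (11.1%), where 27% of all tested genes rose and 28.4% fell, and their median log2 fold change was 1.17. Atf4 rose from 147 ± 10.6 to 598 ± 24.2 CPM (log2 2.03 ± 0.07; edgeR, adjusted p = 1.67e-13). Ddit3 (CHOP, log2 4.71 ± 0.10), Atf3 (4.27 ± 0.09) and Trib3, a pseudokinase (5.90 ± 0.13, from 68 counts over the controls), rose more, and Asns, which makes asparagine and is a standard ATF4 target, rose by 0.91 ± 0.08. Of the regulators of Slc7a11 known from the oxidative stress response, Nfe2l2 (NRF2) was not called (133 ± 1.11 and 140 ± 11.2 CPM; edgeR, adjusted p = 0.41, range over its alternatives 0.0258 to 0.982), and Keap1, its inhibitor, fell from 181 ± 9.65 to 97.6 ± 5.78 CPM. Keap1 is uncertain, since 10.9% of its exon length overlaps Gm16754. Bach1, a repressor that competes with NRF2 at antioxidant response elements, rose from 29.6 ± 1.12 to 84.3 ± 9.17 CPM (log2 1.51 ± 0.09; edgeR, adjusted p = 5.85e-10). The kinase gene Eif2ak2 (PKR) fell (log2 -0.36 ± 0.09).

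The genes whose profiles over the 6 libraries were nearest to that of Slc3a2, by Euclidean distance of log2 CPM centred on the control mean, included Baiap2 (distance 0.153) and Klhl24 (0.165), among 9143 candidates. Those nearest to Slc7a11 were Zswim4 (0.130), Irak2 (0.154) and Pim3 (0.166). With 2 groups, such distances mostly measure a like size of change, and log2 fold changes were 2.20 for Baiap2 and 1.43 for Zswim4.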

How the data were processed

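The authors cleaned reads with fastp, mapped them to mm10 with STAR and counted them with RSEM, per the series' design text. The sources used here name no tool version, annotation or strand setting. Each library's deposited table holds expected counts (RSEM's estimate of reads per gene), TPM, FPKM and gene lengths, per the file headers. The deposited TPM values are scaled for length and depth, and the deposited FPKM values were not used. Symbols covered 52403 of 52636 genes, and 52489 matched GENCODE M21 (GRCm38), from which coordinates and exon overlap on either strand were taken. Named genes with at least 10% of their exon length shared with another gene are given as uncertain.

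Expected counts were rounded, and filterByExpr (minimum count 10, minimum total 15) kept 11561 genes with 99.85% of counts. Groups were compared with the quasi-likelihood test of edgeR 4.0.16 in R 4.3.3, using TMM, no term besides the group, and p-values adjusted by Benjamini-Hochberg over all tested genes. Alternatives used DESeq2 1.42.0 and limma 3.58.1. The SE is the log2 fold change divided by the square root of F, and CPM are TMM-scaled. TPM ratios, shares and lengths were compared by exact permutation of the 6 libraries. Libraries of a group differed by more than sampling noise (chi-square over degrees of freedom 4.3 to 6.46), so none was treated as a copy of another. On simulated data for C2S against PM_control over 11406 genes, the test recovered 74% of 1.5-fold, 98% of 2-fold and 100% of 4-fold changes, with 9 false calls. The simulation gave all genes the same dispersion and changed only a small part of them. Recovery and false calls may differ in the data, where 55.4% of tested genes were called.

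The members, lists and tests were chosen with earlier results of these data known. Named genes were the 10 members, from each other list up to 2 called genes per direction by adjusted p whose groups did not overlap, 5 fixed regulators, and the 3 genes nearest to Slc3a2 and Slc7a11 with at least 5 CPM, of which 1 is not reported here. Slc7a10 and Slc7a7 are named as light chains, and Bach1, Mertk and the markers at 0 after their values were seen. Gclm, Nos2 and Castor1 are named outside these rules, and their fitted changes were not followed over the alternatives. Alternatives were RLE, upper quartile and library size scaling, DESeq2, limma-voom, limma on log2(TPM + 1) and log2(TPM + 0.1) where mean TPM reached 1, no filter, at least 1 CPM in 3 libraries, the replicate number as a block, removal of the trend over GC content, unrounded counts, and leaving out each library. Planned protein comparisons were not made.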

Additional observations from a re-analysis of the deposited data

How the results depend on the processing

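Over 18 alternatives each, Slc3a2 (log2 fold change 2.12 to 2.28), Slc1a4 (3.12 to 3.63), Slc38a2 (1.55 to 1.79), Slc7a11 (1.31 to 1.82), Slc7a5 (1.09 to 1.22), Slc7a1 (0.88 to 1.00) and Slc1a5 (0.61 to 0.73) kept their direction and call. Slc38a1 was not called with library sizes alone (0.14), with log2(TPM + 1) (0.11) or with log2(TPM + 0.1) (0.11), and Slc7a6 was not called on those TPM scales (-0.38 and -0.39), so that 0 members were called lower there. All tested genes called higher numbered 3123, but 1717 and 1705 on the TPM scales, which made the higher share of calls 35.9% (38.3% with library sizes alone) against 48.8%, and the median of all genes was -0.10 with log2(TPM + 0.1) and 0.10 without the count filter. The fitted change of Nfe2l2, not called, was -0.02, -0.03 and -0.03 with library sizes alone and on the TPM scales, and 0.17 and called with the GC trend removed. The cause of these differences was not tested. Differences in TPM ratios moved by less than the spread between replicates under the alternatives that kept all libraries. With 3 libraries per group, leaving out a library must move a difference by less than that spread. It therefore could not test the ratios, shares or lengths, and shares and lengths had no other alternative. Deviations of same-numbered libraries of the 2 groups had correlations of -0.01, 0.07 and 0.03. C2S replicates 2 and 3 correlated best with the control of the same number, and C2S replicate 1 with PM_control replicate 3. Correlations this small do not show whether the numbers pair the libraries. With the replicate block 6489 genes were called against 6405, and the members with 8 higher and 1 lower. Depth limits Slc7a2, at 0 counts throughout, and the control levels of Slc1a4 and Slc7a11, at 289 and 423 counts.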

Other observations

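Enzymes that use the amino acids these transporters carry were described from 4 further lists. Of 8 tested genes of cystine and glutathione metabolism, 4 rose (50%) and 1 fell (12.5%), where 27% of all tested genes rose and 28.4% fell. Their median log2 fold change was 0.25. Cth, which makes cysteine from cystathionine, rose from 3.35 ± 1.2 to 11.1 ± 1.63 CPM (SD, n = 3; edgeR, adjusted p = 9.03e-06), and Txnrd1, which reduces thioredoxin, rose from 360 ± 21.8 to 504 ± 13.8 CPM (edgeR, adjusted p = 3.72e-06). Gclc, the catalytic subunit of the first enzyme of glutathione synthesis, fell slightly (log2 -0.19 ± 0.06, SE; edgeR, adjusted p = 0.0211). That call was lost with DESeq2 (adjusted p = 0.0556) and when C2S replicate 1 (0.0789), C2S replicate 3 (0.0526) or PM_control replicate 2 (0.081) was left out. Gclm, the modifier subunit of that enzyme, rose from 127 ± 3.46 to 155 ± 2.86 CPM (edgeR, adjusted p = 0.000668). Of 12 tested genes of arginine and polyamine metabolism, 7 rose (58.3%) and 1 fell (8.33%), with a median log2 fold change of 0.34. Odc1, the first enzyme of polyamine synthesis (log2 0.46 ± 0.06), and its protector Azin1 (0.52 ± 0.07) rose, and Amd1, which supplies the aminopropyl donor, fell from 188 ± 6.70 to 123 ± 3.97 CPM. Gclm, Odc1 and Amd1 had expected counts that were not whole, as RSEM gives where it divides reads among loci, so all are uncertain.

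Of 8 tested genes of glutamine and glutamate metabolism, 5 rose and 0 fell (median 0.43), with Got1, a cytosolic transaminase, going from 107 ± 2.97 to 188 ± 3.43 CPM and Glul, which makes glutamine, from 39.5 ± 1.63 to 75.5 ± 6.06 CPM. On log2(TPM + 1) 2 of that list were called higher. Of 14 tested genes of leucine sensing and mTORC1 inhibition, 9 rose and 2 fell (median 0.51). The sestrin genes went opposite ways, with Sesn2, a leucine sensor, rising from 24.5 ± 2.71 to 264 ± 10.8 CPM and Sesn1 falling from 34.5 ± 1.06 to 10.3 ± 1.05 CPM. Flcn, which acts on Rag GTPases at the lysosome, rose by 1.95 ± 0.07 on the log2 scale. Castor2 had a log2 fold change of -0.29 ± 0.08, a call lost without PM_control replicate 1 (edgeR, adjusted p = 0.0502). Castor1, an arginine sensor, went the other way, from 2.12 ± 1.07 to 4.64 ± 0.907 CPM (log2 1.14 ± 0.35; edgeR, adjusted p = 0.01). Against these counts, 27% of all tested genes rose and 28.4% fell.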
